A study of Rattus norvegicus with 12 samples.

Results

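The genes described here are the 44 listed members of the unfolded protein response and of the Atf4 branch of the integrated stress response, measured in rat inner medullary collecting duct (IMCD) cells at a high and a low osmolality. They were chosen by name, and all 44 of 44 had a probe set that carried only their symbol, out of 14506 genes tested. Of these, 40 were found under the listed symbol and 4 tRNA synthetase genes (Aars1, Wars1, Gars1 and Mars1) under their current one. One gene of the 44 passed the test between osmolalities, Nupr1, which fell at 300 mOsm/kg at 48 h. Among the 44, no gene of endoplasmic reticulum (ER) folding, amino acid synthesis or tRNA charging passed at either time.

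The cells were primary cultures from kidneys of male rats of the strain labelled SD, aged 7 weeks. All groups spent 4 days at 640 mOsm/kg before the comparison began. They were then kept at 640 or stepped down to 300 mOsm/kg for 24 h or 48 h, with 3 samples and 3 arrays in each of the 4 groups, so that the controls too had lived in hyperosmolar medium throughout, for 5 or 6 days. Total RNA was hybridised to Affymetrix rat gene arrays, and the origin of the replicates is not stated. If they do not stem from different rats or dishes, the p-values below capture technical spread alone. Short codes in the sample descriptions name other osmolalities for the low group at 24 h and the high group at 48 h, and the titles and treatment labels were followed.

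The arrays lay on different scales and resembled each other in sets. The median of the genes tested was 6.81 to 6.97 on the deposited log2 scale on the 6 arrays at 48 h, 6.89 and 6.90 on replicate 1 at 300 and replicate 3 at 640 at 24 h, and 7.43 to 7.58 on the other 4 arrays at 24 h. Each array was therefore centred on its median, and levels below are on that centred log2 scale. The deviations of all genes from their group means correlated at r = 0.844 between the replicates numbered 2 at the 2 osmolalities at 24 h and 0.795 at 48 h, at 0.825 and 0.780 between replicate 1 at 300 and replicate 3 at 640, and at 0.576 and 0.631 between replicate 3 at 300 and replicate 1 at 640. These values describe genes within arrays, with no test. The main model below has no term for these sets. Spread that a set shared across osmolalities therefore counts towards its SEs, intervals and p-values. Aqp2, a vasopressin-regulated water channel of the collecting duct, had mean levels of 10.7 and 11.7 at 640 at 24 h and 48 h. At 300 its means were 7.09 and 7.31. Other markers did not all follow it. Of 16 markers of collecting duct principal cells, 4 were higher and 12 lower at 300 at 24 h, and 7 and 9 at 48 h. Epcam, for example, had means of 12.16 and 12.48 at 640 and of 12.15 and 12.54 at 300. No detection calls were used, so no gene can be called absent, and in a culture of more than 1 cell type fewer cells and less RNA per cell cannot be told apart.

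When proteins misfold in the ER, sensors in its membrane respond: Atf6 and the enzyme that splices Xbp1 messenger RNA turn on chaperone and degradation genes, and the kinase Perk, made from Eif2ak3, phosphorylates the translation factor eIF2. That step slows protein synthesis in general but favours translation of Atf4, a transcription factor that drives genes of amino acid synthesis, amino acid transport and tRNA charging, and later Ddit3 and Trib3. Other kinases reach Atf4 without ER stress, so the chaperone and the Atf4 genes need not move together. Cells of the inner medulla live in a concentrated surrounding that perturbs protein folding, which is why stress genes are studied there.

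Nupr1 was the member with the largest difference at 48 h. It encodes a small chromatin-associated protein that is induced by many stresses, and it is a known target of Atf4. At 48 h its log2 level was 12.26, 12.54 and 11.80 in the 3 arrays at 640 and 10.70, 11.41 and 10.96 at 300. At 24 h it was 11.46, 11.56 and 11.54 at 640 and 10.95, 11.06 and 10.79 at 300. The arrays of the 2 osmolalities did not overlap at either time, and every array at 300 lay below every array at 640 of its own time.

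At 48 h Nupr1 fell 2.27-fold (limma adjusted p = 0.00614). The mean level was 12.20 ± 0.370 at 640 and 11.02 ± 0.358 at 300 (SD, n = 3), a log2 change of -1.18 ± 0.21 SE. It was the 1 member of 44 called at 48 h, where 1.85% of all genes tested were called and 1.33% were called lower. On the deposited values, which are not centred, the change was -1.18 with adjusted p = 0.0663, and the call was lost. At 24 h its log2 change was -0.59 ± 0.21 SE (means of 11.52 ± 0.0545 and 10.93 ± 0.136, SD, n = 3), which did not pass (limma adjusted p = 0.498, unadjusted p = 0.0136). None of the 44 members was called at 24 h (0.655% of all genes were), and 2 had an unadjusted p under 0.05, where 5.45% of all genes did. The change at 48 h minus that at 24 h was -0.59 ± 0.30 SE (limma adjusted p = 1.000, unadjusted p = 0.0643), so a difference between times was not shown.

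Between 24 h and 48 h the mean of Nupr1 differed by 0.68 ± 0.21 SE at 640 (limma adjusted p = 0.445, unadjusted p = 0.00540) and by 0.09 ± 0.21 SE at 300 (adjusted p = 0.949). The 3 arrays at 640 at 48 h lay above the 3 at 24 h. Of the 44 members, Nupr1 and Canx were apart in this direction and Stc2 in the other (9.58% of all genes tested were apart in either). At 300 the arrays of both times overlapped for all 44 members (12.1% of all genes were apart). Neither change passed, and their difference is the same quantity as the difference between times above.

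**Figure D1:**
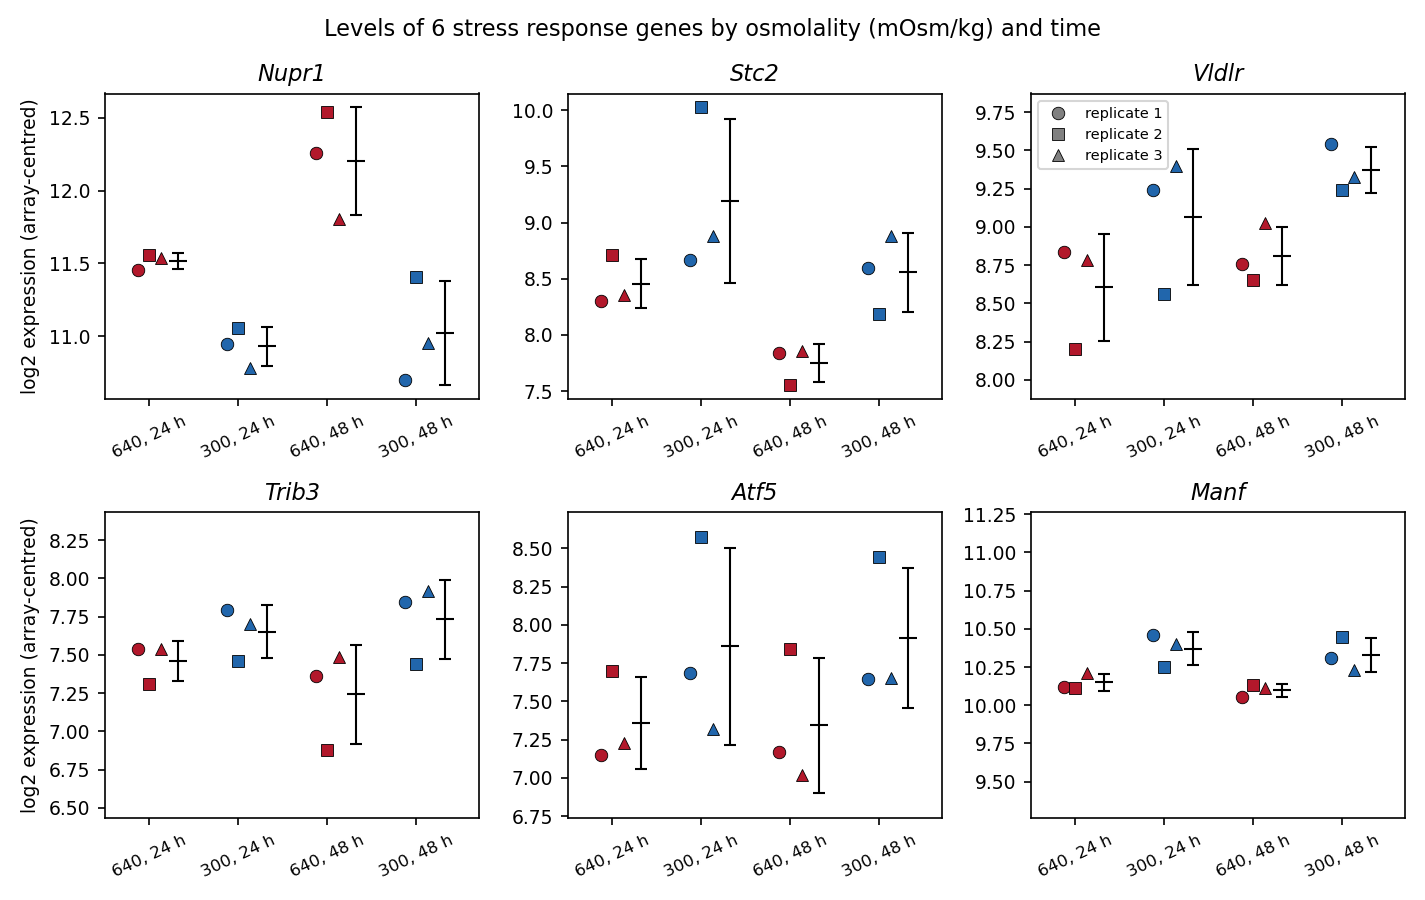
Centred log2 levels (vertical axes, each with its own range) of Nupr1, Stc2, Vldlr, Trib3, Atf5 and Manf on each array, by osmolality in mOsm/kg and time (horizontal axis). Symbols mark replicate numbers, red is 640 and blue is 300, and black bars give the mean and SD of 3 arrays. Nupr1 is the gene that passed the test, at 48 h, with arrays between 11.80 and 12.54 at 640 and between 10.70 and 11.41 at 300.

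The promoter of Nupr1 is shown because it holds the C/EBP-ATF response element through which Atf4 is known to act. The 250 bases before its start in RefSeq (GRCr8, chr1:190645902-190646151, minus strand) are printed 5′ to 3′, and capitals mark the match to TGATGCAA, here read on the opposite strand.
Nupr1: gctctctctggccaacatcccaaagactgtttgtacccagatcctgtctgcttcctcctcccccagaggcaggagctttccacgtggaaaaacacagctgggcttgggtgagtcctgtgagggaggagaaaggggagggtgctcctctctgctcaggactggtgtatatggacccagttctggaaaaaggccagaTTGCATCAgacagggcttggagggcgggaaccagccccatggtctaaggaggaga
The 8 letters TGATGCAA were searched on both strands in the RefSeq windows from 250 bases before to 50 after the start, which 37 of the 44 members had. They occurred in 6 of the 37, and in 0.795% of all 33469 windows. Of these, 5 are printed along the strand that reads TGATGCAA, with 10 bases on either side, to show how alike their surroundings are.
Nupr1: aagccctgtcTGATGCAAtctggccttt
Chac1: ctagcaggagTGATGCAAcggcggagaa
Pycr1: gtcctgtgtaTGATGCAAtgtacaaggc
Mars1: gagcccacgcTGATGCAAccggaacggg
Herpud1: gggtgcgggcTGATGCAAcccgccgtgg
In GRCr8 the printed stretches lie at chr1:190645939-190645966 (Nupr1), chr3:126795954-126795981 (Chac1), chr10:106420926-106420953 (Pycr1), chr7:65023753-65023780 (Mars1) and chr19:10614874-10614901 (Herpud1). Of these 5, Nupr1 alone passed the test between osmolalities. The other 4 had log2 changes at 48 h of -0.12 (Chac1), 0.14 (Pycr1), 0.07 (Mars1) and -0.11 (Herpud1), with limma adjusted p = 0.999 each. A match to these letters describes the sequence and does not show that a factor bound there.

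Among the 5 other effectors of the Atf4 arm, 3 were higher at 300 at both times and 0 passed. Stc2 encodes stanniocalcin 2, a secreted glycoprotein made under ER stress. At 48 h its level was 7.84, 7.55 and 7.86 in the arrays at 640 and 8.60, 8.19 and 8.88 at 300, and the osmolalities did not overlap. At 24 h it was 8.31, 8.71 and 8.36 at 640 and 8.66, 10.03 and 8.88 at 300, where replicate 2 stood above all others and the arrays overlapped. The log2 change was 0.81 ± 0.29 SE at 48 h (limma adjusted p = 0.295, unadjusted p = 0.0141) and 0.73 ± 0.29 SE at 24 h (adjusted p = 0.654, unadjusted p = 0.0234). These were the largest positive differences of any member at either time, and neither passed. Without replicate 2 at 300 the value at 24 h was 0.32. That fit kept replicate 2 at 640, which was also the highest of its group at 8.71.

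Vldlr, a receptor for lipoproteins that Atf4 is known to induce, had levels of 8.76, 8.65 and 9.02 at 640 and 9.54, 9.24 and 9.33 at 300 at 48 h, with no overlap. Its log2 change was 0.56 ± 0.23 SE at 48 h (limma adjusted p = 0.439, unadjusted p = 0.0273) and 0.46 ± 0.23 SE at 24 h (adjusted p = 1.000). Trib3, a pseudokinase that restrains Atf4 in a feedback loop, had 7.36, 6.88 and 7.48 at 640 and 7.84, 7.44 and 7.92 at 300 at 48 h. Its arrays overlapped by a narrow margin, 7.48 against 7.44. The log2 change of Trib3 was 0.49 ± 0.19 SE at 48 h (limma adjusted p = 0.399, unadjusted p = 0.0233) and 0.19 ± 0.19 SE at 24 h. With Nupr1 these were the 4 members with an unadjusted p under 0.05 at 48 h, 3 higher and 1 lower, where 8.18% of all genes tested had one.

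The remaining effectors were close to level between osmolalities. Chac1, which degrades glutathione and is sensitive to Atf4 and Ddit3, had log2 changes of -0.06 ± 0.27 SE at 24 h and -0.12 ± 0.27 SE at 48 h. Ppp1r15a, the phosphatase subunit that reverses eIF2 phosphorylation, had -0.11 ± 0.30 SE and -0.045 ± 0.30 SE. Their levels spread over 1.10 and 1.08 log2 units across the 12 arrays. The 95% intervals at 48 h ran from -0.70 to 0.45 for Chac1 and from -0.68 to 0.59 for Ppp1r15a. They are not adjusted for the number of genes and are not limits of detection. Changes within them remain possible, and larger ones could still fail to pass after adjustment.

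Of the 6 transcription regulators of the Atf4 arm, 3 were higher and 3 lower at 300 at each time, and Nupr1 at 48 h was the 1 that passed. Atf4 itself had levels from 10.42 to 11.08 over the 12 arrays, with log2 changes of 0.04 ± 0.19 SE at 24 h and -0.13 ± 0.19 SE at 48 h. Atf4 is controlled largely through translation, which an array of messenger RNA does not measure. Ddit3, the transcription factor also called CHOP, had -0.19 ± 0.28 SE and 0.03 ± 0.28 SE. Cebpb, a partner of these factors, had -0.01 ± 0.19 SE and -0.16 ± 0.19 SE.

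Atf5 and Atf3, related bZIP factors, had higher means at 300 without passing. Atf5 stood at 7.17, 7.84 and 7.02 at 640 and 7.65, 8.44 and 7.65 at 300 at 48 h. The arrays overlapped, since replicate 2 was the highest at both osmolalities, and the log2 change was 0.57 ± 0.32 SE at 48 h (limma adjusted p = 0.809) and 0.50 ± 0.32 SE at 24 h (adjusted p = 1.000). Atf3, an early stress factor, had 0.36 ± 0.21 SE at 48 h (limma adjusted p = 0.846) and 0.26 ± 0.21 SE at 24 h (adjusted p = 1.000).

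The 8 genes of amino acid and one-carbon synthesis had medians of 0.09 at 24 h and 0.15 at 48 h, with 6 and 5 of them higher at 300, and 0 passed at either time. None had an unadjusted p under 0.05 at either time. Pycr1, the last enzyme of proline synthesis, had the largest value at 24 h, 0.60 ± 0.38 SE (limma adjusted p = 1.000). Its levels at 24 h were 6.10, 7.37 and 6.06 at 640 and 6.72, 8.09 and 6.53 at 300. Replicate 2 was the highest at both osmolalities, and the value at 48 h was 0.14 ± 0.38 SE. Asns, asparagine synthetase and a sensitive target of Atf4, was at 10.11, 10.37 and 10.40 at 640 and at 10.60, 10.43 and 10.48 at 300 at 24 h. Its arrays did not overlap at 24 h, with a log2 change of 0.21 ± 0.16 SE (limma adjusted p = 1.000), and overlapped at 48 h (0.16 ± 0.16 SE).

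The serine pathway showed no common direction. Phgdh, Psat1 and Psph, its 3 enzymes in order, had log2 changes of 0.18, -0.12 and -0.03 at 48 h. Shmt2 and Mthfd2, which carry serine carbon into mitochondrial folate metabolism, had -0.18 ± 0.16 SE and 0.30 ± 0.25 SE at 48 h, and Shmt2 was lower on all 3 arrays at 300 there than on any at 640. Aldh18a1, the enzyme before Pycr1 in proline synthesis, had 0.13 ± 0.19 SE at 24 h and 0.28 ± 0.19 SE at 48 h. Psat1 and Mthfd2 were the members with a second probe set, which gave -0.21 for Psat1 and 0.27 for Mthfd2 at 48 h. At 24 h the Psat1 probe sets gave 0.00 and -0.10.

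The 4 tRNA synthetases, which load alanine, tryptophan, glycine and methionine onto their tRNAs, had log2 changes between -0.08 and 0.05 at 24 h and between -0.04 and 0.13 at 48 h. None was called or had an unadjusted p under 0.05 at either time. Aars1 differed by 0.00 at 24 h, yet its SD there was 0.598 at 640 and 0.627 at 300 (n = 3), with replicate 2 the lowest in both. Its spread within a group was thus far wider than the difference. The 95% interval ran from -0.71 to 0.71, and it counts spread that resembling arrays shared across osmolalities.

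The 15 chaperones and foldases of the ER were close to level between osmolalities. At 24 h 13 were higher and 2 lower at 300 (median 0.06), and at 48 h again 13 and 2 (median 0.10), while the medians over all genes tested were -0.04 and 0.02. None was called and none had an unadjusted p under 0.05 at either time. Their log2 changes ran from -0.11 to 0.22 at 24 h and from -0.26 to 0.27 at 48 h. The 95% intervals of all 15 lay within 1 log2 unit of 0, the widest bounds being -0.63 and 0.72 at 24 h and -0.80 and 0.94 at 48 h.

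Hspa5, the ER Hsp70 known as BiP that also holds the stress sensors inactive, was at 12.14, 11.62 and 12.51 at 640 and 12.58, 11.75 and 12.06 at 300 at 24 h. At 48 h it was at 12.42, 12.11 and 12.63 at 640 and 12.69, 12.21 and 12.56 at 300. The arrays of the 2 osmolalities covered the same range at each time, and replicate 2 was the lowest in all 4 groups. Its log2 change was 0.04 ± 0.25 SE at 24 h and 0.10 ± 0.25 SE at 48 h. Hsp90b1, the ER Hsp90, had 0.15 ± 0.21 SE and 0.12 ± 0.21 SE, and the lectin chaperones Calr and Canx, which fold glycoproteins, had 0.12 ± 0.23 SE and 0.03 ± 0.22 SE at 48 h.

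Manf, a small secreted protein of the ER that is released under stress, had the smallest SE of the 15. It was at 10.12, 10.11 and 10.21 at 640 and 10.46, 10.25 and 10.40 at 300 at 24 h, and at 10.05, 10.13 and 10.11 and 10.31, 10.45 and 10.23 at 48 h. Every array at 300 was above every array at 640 of its time. The log2 change was 0.22 ± 0.14 SE at 24 h (limma adjusted p = 1.000) and 0.23 ± 0.14 SE at 48 h (adjusted p = 0.936), and neither passed. Manf and Nupr1 were the 2 members of 44 apart in the same direction at both times, as were 4.03% of all genes tested. Within each time the arrays did not overlap for 4 members at 24 h (8.56% of all genes) and for 7 at 48 h (14.8% of all genes).

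Of the disulphide isomerases, Pdia6 had the largest difference at 48 h, with levels of 11.16, 11.17 and 11.22 at 640 and 11.44, 11.37 and 11.44 at 300 at 48 h, where the groups did not overlap. Its log2 change was 0.23 ± 0.19 SE at 48 h (limma adjusted p = 0.999) and 0.06 ± 0.19 SE at 24 h. Pdia3, Pdia4 and P4hb had 0.02, 0.04 and 0.10 at 48 h. The moderated SE of Pdia6 is wider than its spread at 48 h alone, because the model pools all 4 groups and those at 24 h spread more (SD 0.278 at 640 and 0.335 at 300 at 24 h against 0.0299 and 0.0395 at 48 h, n = 3). Creld2, an isomerase-like gene that ER stress induces, was apart at 48 h too, with 0.26 ± 0.20 SE (limma adjusted p = 0.999).

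The J-domain partners of Hspa5 did not share a direction. Dnajb9 had -0.26 ± 0.25 SE, Dnajb11 0.045 ± 0.15 SE and Dnajc3 0.18 ± 0.19 SE at 48 h. Hyou1, its nucleotide exchange factor, had -0.03 ± 0.28 SE, and Sdf2l1, which works with Dnajb11, had 0.27 ± 0.32 SE. None of them passed.

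The promoters of 7 members held a full ER stress response element, which Atf6 recognises together with NF-Y. It consists of CCAAT and CCACG with 9 bases of any kind between them. It was searched on both strands, and the 7 are shown because 6 of them belong to the 12 chaperones with a window, which lets a reader see the shared element of a group in which no gene passed. In all, 0.0657% of the 33469 windows held it. Capitals mark the fixed letters, read along the strand of the element.
Hspa5: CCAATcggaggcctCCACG
Hsp90b1, first: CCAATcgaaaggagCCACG
Hsp90b1, second: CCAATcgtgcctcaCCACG
Calr: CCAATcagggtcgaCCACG
Canx: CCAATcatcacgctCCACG
Dnajc3: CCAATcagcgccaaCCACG
Creld2: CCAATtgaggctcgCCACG
Xbp1: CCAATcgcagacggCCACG
In GRCr8 they lie at chr3:38452973-38452991 (Hspa5), chr7:23012451-23012469 and chr7:23012347-23012365 (Hsp90b1), chr19:40213135-40213153 (Calr), chr10:35158069-35158087 (Canx), chr15:102432534-102432552 (Dnajc3), chr7:121789239-121789257 (Creld2) and chr14:84604558-84604576 (Xbp1). None of the 15 promoters of Atf4 targets that were searched held the full element, and none of the 12 chaperone promoters held TGATGCAA. The 7 genes with the element had log2 changes between -0.02 (Xbp1) and 0.26 (Creld2) at 48 h and did not pass.

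The genes of ER-associated degradation and the sensors did not pass at either time. Herpud1, which helps assemble the degradation machinery, had -0.21 ± 0.20 SE at 24 h and -0.11 ± 0.20 SE at 48 h, and Sel1l, the adaptor of its ubiquitin ligase, had 0.10 ± 0.22 SE and 0.09 ± 0.22 SE. Syvn1, the ligase, had the widest spread of these, with 8.10, 9.25 and 7.23 at 640 and 7.09, 9.07 and 8.06 at 300 at 24 h. Its log2 change was -0.12 ± 0.50 SE at 24 h and -0.38 ± 0.50 SE at 48 h. Replicate 2 was the highest in all 4 groups, which counts towards these SEs. This fit, without a term for the sets of resembling arrays, could not show a change of that size. Xbp1 had -0.03 ± 0.24 SE and -0.02 ± 0.24 SE, Atf6 0.05 ± 0.16 SE and -0.09 ± 0.16 SE, and Eif2ak3 0.06 ± 0.18 SE and -0.02 ± 0.18 SE. Of these 6 genes 0 were called at either time, and 0 had an unadjusted p under 0.05. Splicing of Xbp1 and cleavage of Atf6 are not measured by gene-level probe sets.

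**Figure D2:**
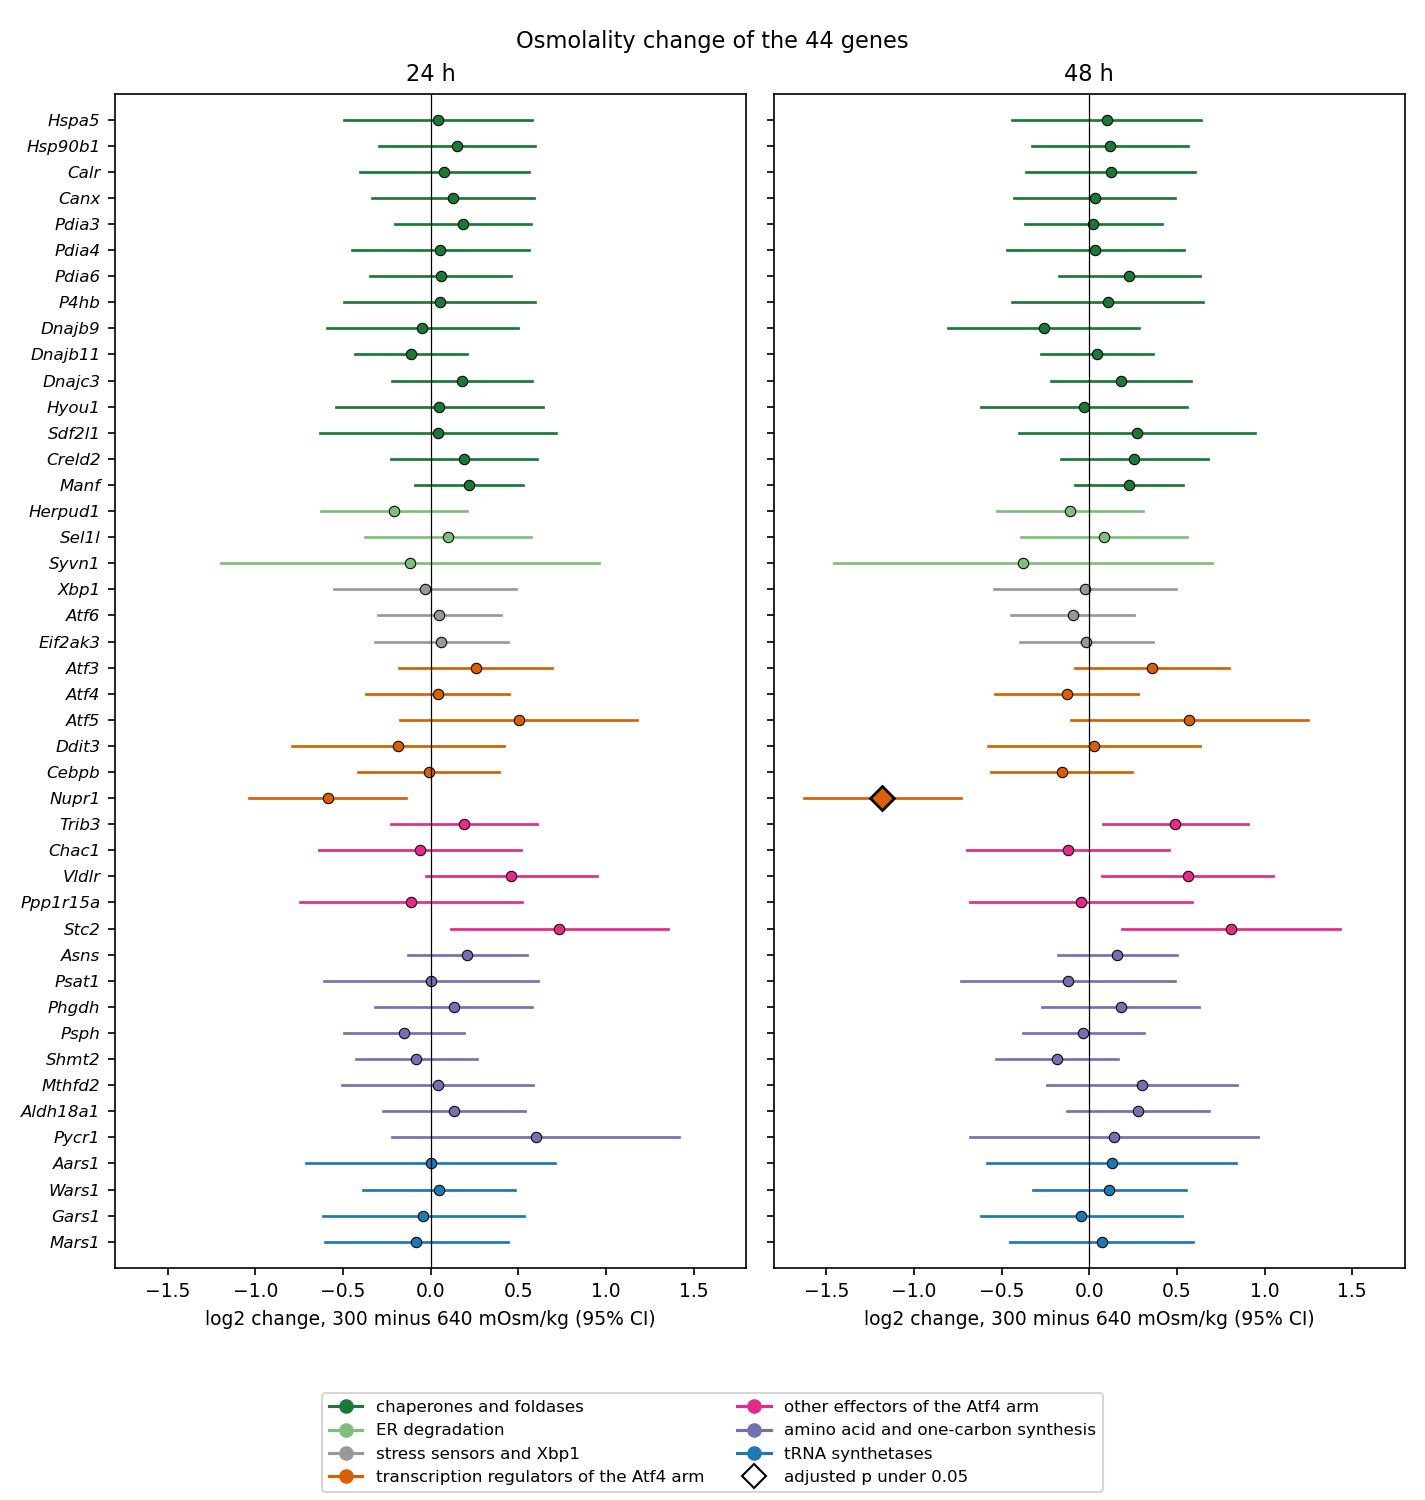
Log2 change of each of the 44 genes at 300 minus 640 mOsm/kg (horizontal axes) at 24 h and 48 h, with 95% intervals from limma that are not adjusted for the number of genes; colours mark role groups. Nupr1 at 48 h (-1.18, diamond) is the gene past an adjusted p of 0.05, and the chaperones lie between -0.26 and 0.27 at 48 h.

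Set side by side, the chaperones and the Atf4 targets gave similar medians between osmolalities. The Atf4 targets are here the 17 effectors, synthesis enzymes and tRNA synthetases. They leave out the transcription regulators, Ddit3 and Nupr1 among them. Nupr1, also a known target of Atf4, was called at 48 h with a log2 change of -1.18. The median log2 change of the 17 was 0.04 at 24 h and 0.13 at 48 h, against 0.06 and 0.10 for the 15 chaperones. The targets spread more widely, from -0.15 to 0.73 at 24 h and from -0.18 to 0.81 at 48 h. On arrays normalised by cyclic loess the medians were 0.065 and 0.12 for the targets and 0.08 and 0.09 for the chaperones. The group differences are given as a description, and 35 of the 44 members (79.5%) had the same sign at both times, as did 66.2% of all genes tested.

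No member passed the test for a difference in its osmolality change between times. limma called 0 of 44 for that difference (0.0276% of all genes tested), and 0 had an unadjusted p under 0.05 (0.903% of all genes). The 3 largest values were those of Nupr1 (-0.59), Pycr1 (-0.46 ± 0.54 SE) and Trib3 (0.30 ± 0.27 SE). With SEs from 0.20 to 0.71 this fit could show only large differences of this kind.

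Over time at constant osmolality, no member was called, at 640 (0.138% of all genes were called) or at 300 (0.255%). An unadjusted p under 0.05 was found for 4 members at 640 (6.58% of all genes) and 1 at 300 (7.62%). At 640 these were Nupr1, Cebpb (0.48 ± 0.19 SE) and Canx (0.47 ± 0.22 SE), all higher at 48 h, and Stc2 (-0.71 ± 0.29 SE). At 300 it was Stc2 (-0.63 ± 0.29 SE). Adjusted p from limma was 0.607 for Cebpb, 0.756 for Canx and 0.672 for Stc2 at 640, and 0.650 for Stc2 at 300. Stc2 was thus lower at 48 h than at 24 h in both media, with means of 8.46 and 7.75 at 640 and 9.19 and 8.56 at 300, without passing in either.

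The chaperones had higher centred levels at 48 h than at 24 h in both media, and the direction depended on the scale. Their median log2 change was 0.20 at 640 (12 of 15 higher) and 0.24 at 300 (13 of 15 higher), while the 17 Atf4 targets had -0.02 in each. On the deposited values the chaperone medians were -0.21 and -0.20 and those of the targets -0.43 and -0.45, when the median of all genes tested was -0.41 at 640 and -0.38 at 300. With cyclic loess the chaperone medians were 0.07 and 0.10. The chaperones thus lay above the median of all genes on all 3 scales. Genes with a mean signal of at least 10 on the log2 scale, 1571 in number, had medians of 0.12 and 0.15 on centred arrays and of 0.01 and -0.00 with cyclic loess.

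The change over time moved with the array medians. On the 4 arrays at 24 h with high medians the chaperones lay below their own means over 12 arrays, by a median between -0.34 and -0.18. On the other 2 arrays at 24 h, replicate 1 at 300 and replicate 3 at 640, they lay above, at 0.22 and 0.14, and the 6 arrays at 48 h ranged from -0.02 to 0.24. The 2 low-median arrays of 24 h therefore looked like those of 48 h. Without them the chaperone medians over time were 0.34 at 640 and 0.38 at 300, with 0 called, 5 and 6 at an unadjusted p under 0.05 and, at 300, 15 of 15 higher. The genes with a mean signal of at least 10 then had medians of 0.16 and 0.19, with 1147 and 1185 of 1571 higher.

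Markers of interstitial fibroblasts also moved over time, with 9 of 9 higher at 48 h in both media (medians 1.13 at 640 and 1.07 at 300, 3 and 4 called). Their mean level per array was 6.35 to 6.83 at 24 h and 7.41 to 7.64 at 48 h at 640, and 6.56 to 6.81 and 7.50 to 7.83 at 300. Of 9 macrophage markers 9 and 8 were higher, with 0 and 1 called. The part of the array scale and of these cells in the chaperone levels was not tested.

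**Figure D3:**
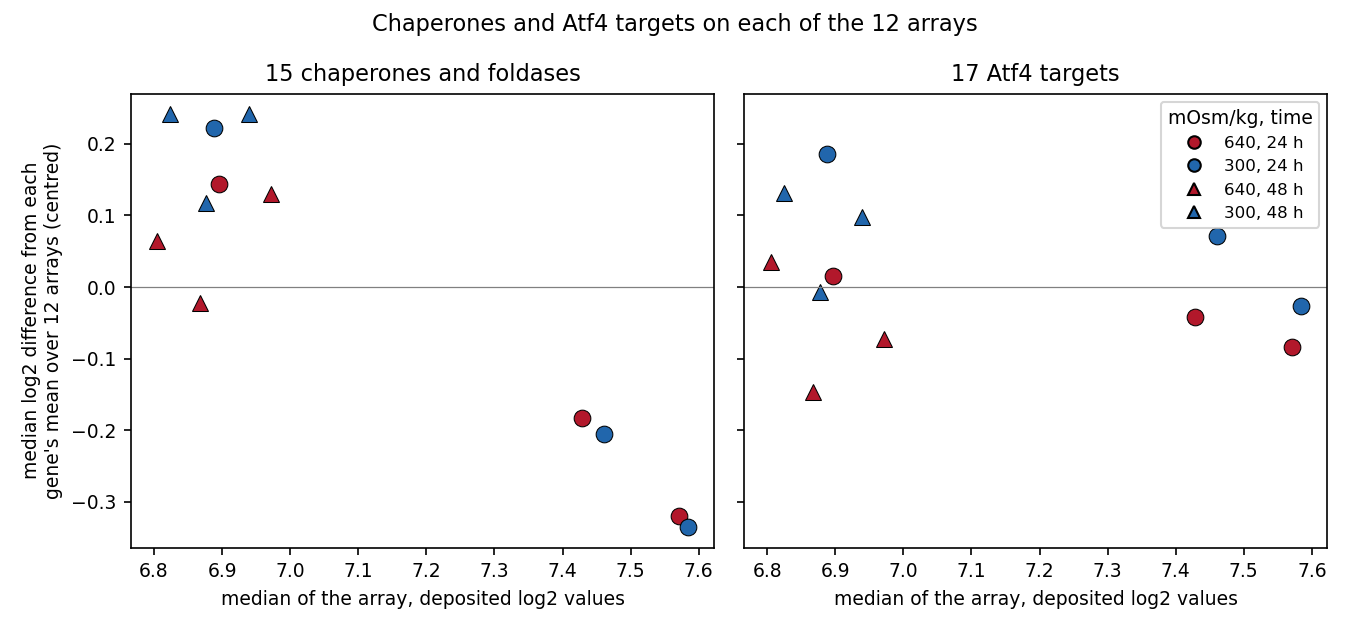
Median log2 difference of 15 chaperones and of 17 Atf4 targets from each gene's own mean over 12 centred arrays (vertical axis), against the median of each array on the deposited log2 scale (horizontal axis); each point is 1 array. The chaperones lie between -0.34 and -0.18 on the 4 arrays with medians of 7.43 to 7.58 and between -0.02 and 0.24 on the other 8, and red and blue points are mixed.

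Some cell type markers also differed between osmolalities at 48 h, and the lists did not share a direction. The mean level of the 7 endothelial markers per array was 6.68 to 7.08 at 640 and 6.27 to 6.59 at 300 (7 of 7 lower, 1 called), and that of the 7 markers of thick ascending and thin limbs 6.41 to 6.64 and 5.73 to 5.88 (6 of 7 lower, 2 called). The 16 principal cell markers had 9.40 to 9.57 and 8.73 to 8.97 (9 of 16 lower and 7 higher, 4 called). The 4 called were Aqp2, Aqp3, Slc14a2 and Avpr2, all lower, so the lower mean level does not stand for the whole list. Fibroblast markers had 7.41 to 7.64 and 7.50 to 7.83 (5 of 9 higher, 1 called), macrophage markers 6.63 to 6.78 and 6.44 to 6.72 (5 of 9 lower, 1 called) and intercalated cell markers 5.52 to 5.71 and 5.54 to 5.63 (0 called). Their part in the Nupr1 difference was not tested.

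Replicates of a group spread widely for many members. The osmolality change was larger than the pooled SD within groups for 9 of 44 members at 24 h and 12 at 48 h. That SD takes no account of the sets in which arrays resembled each other across osmolalities. Replicate 2 was the highest of 3 in all 4 groups for 9 members and the lowest in all 4 for 12, which is 47.7% of the 44 and compares with 24.6% of all genes tested. Among the highest were Syvn1 (1.17 above the mean of the other 2 replicates, averaged over groups), Pycr1 (0.92), Atf5 (0.78) and Ppp1r15a (0.66). Among the lowest were Aars1 (-0.83), Hyou1 (-0.68), Mthfd2 (-0.60), Mars1 (-0.53) and Hspa5 (-0.53).

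Genes of one role stood on both sides of that split. Of the tRNA synthetases Wars1 was the highest in replicate 2 in all groups (0.38), while Aars1 and Mars1 were the lowest. Of the chaperones Dnajb9 (0.54) and Sdf2l1 (0.59) were the highest, and Hspa5, Pdia4 and Hyou1 the lowest. Nupr1 was highest in replicate 2 in all 4 groups too (0.33), yet its osmolalities stayed apart at both times. What replicate 2 shared across groups is not given in the labels.

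**Figure D4:**
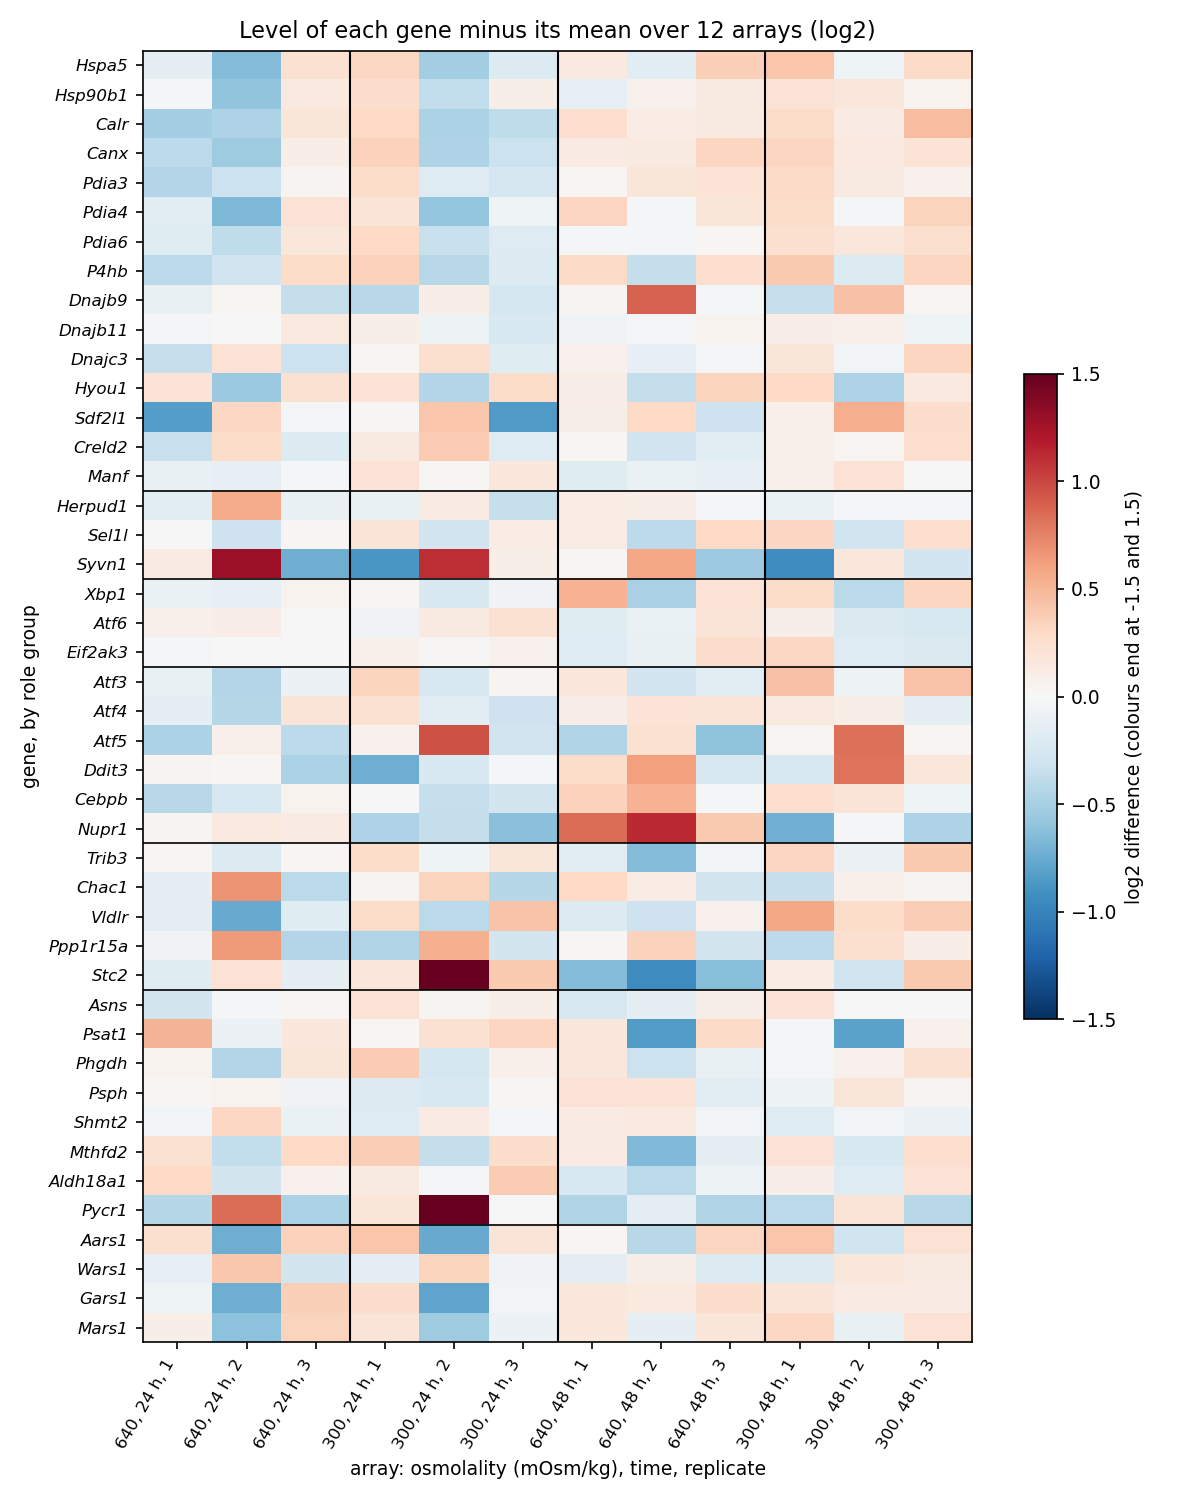
Centred log2 level of each of the 44 genes (rows, by role group) on each of the 12 arrays (columns, by osmolality, time and replicate), minus the gene's mean over 12 arrays; red is above and blue below that mean. Replicate 2 stands apart in each group for genes such as Syvn1 and Aars1, and the chaperones are low on 4 of the 6 arrays at 24 h.

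Few other genes of both pathways passed. Of 41 further measured unfolded protein response genes, from translocation, glycan checking and oxidative folding, 25 were higher and 16 lower at 300 at 24 h (median 0.02), and 20 and 21 at 48 h (median -0.0026). None was called at either time, and 0 at 24 h and 2 at 48 h had an unadjusted p under 0.05. Of 49 further genes of Atf4 and the integrated stress response, 28 were higher at 24 h (median 0.03) and 31 at 48 h (median 0.09). The 1 that passed was Slc7a11, the cystine importer that is also a target of Nrf2, which rose at 24 h (log2 change 0.99 ± 0.20 SE, limma adjusted p = 0.0326). An unadjusted p under 0.05 was found for 5 higher and 1 lower of the 49 at 24 h (5.45% of all genes tested) and for 4 higher and 1 lower at 48 h (8.18%), where 0 were called.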

How the data were processed

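Total RNA of 12 samples was measured on Affymetrix rat gene arrays, grouped by their titles, which also number the replicates. The authors deposited log2 values for each probe set on each array. Per the submitters' processing notes these came from RMA and Affymetrix Power Tools, and no version is given in the sources used here. Of 27596 probe sets, 15310 carried 1 gene symbol, and the probe set with the highest mean was kept for each of 14506 genes. Promoter windows came from RefSeq (GRCr8). The sequence of 1 match is not reported here.

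Each array was centred on its median over these genes. limma 3.58.1 in R 4.3.3 (lmFit, eBayes) fitted 1 mean per group over 12 arrays (8 residual degrees of freedom), with Benjamini-Hochberg adjustment over all genes and calls at 0.05. The fit was tested on simulated data with independent noise, which lacked the resemblance between arrays described above. Levels carry SDs and changes moderated SEs. With 3 arrays in a group, their number limits precision.

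Members, lists and the rule for named genes (all members, and called genes of other lists) were chosen with earlier results of these data known. Alternatives were other scalings, filters, variance settings, probe set means, fewer groups, a replicate block and left-out arrays.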

Additional observations from a re-analysis of the deposited data

How the results depend on the processing

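The call of Nupr1 at 48 h held in 13 of 14 alternatives, with log2 changes from -1.38 to -1.01. It was lost on the deposited values, which gave 0 called members (adjusted p = 0.0663), with a larger SE there (0.27 against 0.21). No member was called in any other comparison under any alternative run. For osmolality at 48 h the lowest limma adjusted p over the alternatives was 0.086 for Atf5, 0.094 for Stc2, 0.099 for Trib3 and 0.12 for Vldlr. The highest was at least 0.94 for each of these genes. Of the 220 member changes (44 genes in 5 comparisons), 150 had another sign under at least 1 alternative, none of them called. Over their 3476 alternative values, 3074 kept their sign and their side of the threshold, 401 had another sign and 1 was weaker. Counts over all genes depended more on the setting, and the cause was not tested. On deposited values they were 13 and 104 for osmolality at 24 h and 48 h (95 and 269 on centred arrays), split into 2 higher and 11 lower at 24 h (40 and 55 on centred arrays), and 0 for the difference between times, for time at 640 and for time at 300 (4, 20 and 37 on centred arrays). The difference between times gave 2 with centring on all probe sets and 2 with cyclic loess. A fit of the 24 h groups alone gave 10 for osmolality at 24 h. Without the 24 h arrays with low medians the counts were 17 at 24 h, 0 for the difference, 34 for time at 640 and 219 for time at 300. Leaving out 1 array gave 26 to 75 at 24 h, 158 to 194 at 48 h, 0 to 4 for the difference, 6 to 15 for time at 640 and 7 to 38 for time at 300, and 0 to 0 or, at 48 h, 1 to 1 members. Same-numbered arrays of a time correlated at -0.125, 0.844 and -0.206 at 24 h and -0.231, 0.795 and -0.222 at 48 h, so the shared numbers alone do not pair the samples. Replicates 1 and 3 resembled each other across osmolalities instead (0.825 and 0.576 at 24 h, 0.780 and 0.631 at 48 h). Whether numbers were exchanged is not known from the labels, and no fit with such pairs was made. With the replicate block 159 genes were called at 24 h, 403 at 48 h, 6 for the difference, 35 for time at 640 and 92 for time at 300, and among members again only Nupr1 at 48 h. Changes of the members smaller than about 1 log2 unit could go uncalled after adjustment over all genes. Stc2 at 24 h, with 0.73 ± 0.29 SE, had limma adjusted p = 0.654. For the genes of widest spread, such as Syvn1 (SE 0.50), larger changes could go uncalled too.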
